A study of Mus musculus with 141 samples.

Results

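Basophil/mast cell progenitors (BMCP) from mouse bone marrow were compared cell by cell, those with abundant Fos transcripts against those that had almost none. Of 94 BMCP 89 were kept, each with 50000 or more nuclear-encoded counts, no more than 10% mitochondrial counts and no more than 50% spike-in reads. Levels are CPM, reads per 1e6 nuclear-encoded counts of the cell. The 39 cells with at least 50 CPM of Fos form the Fos-high side, the 36 cells under 10 CPM form the Fos-low side, and the 14 cells between were left out of the comparison. The members are therefore 75 of the 141 cells sequenced. The cells were chosen by their measured Fos CPM, so the level of Fos itself is given as a description and is no result.

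All cells came from female C57BL/6 mice, 3 in number, and were sorted singly into wells. BMCP were gated as Live, Lin-, cKit+, Sca1-, integrin beta7hi and CD16/32hi, and the 47 granulocyte/monocyte progenitors (GMP) of the same series, used here only for contrast, were Live, Lin-, cKit+, Sca1-, CD34+ and CD16/32hi cells outside the BMCP gate. Both sides share strain, sex, tissue and gate. The labels name no treatment and no age, and they tie no cell to a mouse, so each side counts as 1 sample, no test was run and no p-value is given. Intervals on summed reads cover counting error only, and amplified reads without molecular identifiers are not independent molecules. Intervals on shares of cells treat the cells as independent draws. Neither kind covers the spread between mice.

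The immediate early response is the first wave of transcription after a cell receives a signal. Kinases of the RAS and MAPK cascade activate factors that already sit on DNA, genes such as Fos, Jun and Egr1 are switched on without new protein synthesis, and their short-lived transcripts disappear soon after the signal ends. The FOS and JUN proteins pair to form the transcription factor AP-1, while other genes of the wave encode phosphatases and RNA-binding proteins that shut the response down. In mast cells the wave follows signalling through KIT and the IgE receptor. The same genes are also known to respond to the handling of cells during tissue dissociation and sorting, and these settings cannot be told apart here.

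To show what the early genes carry in front of their starts, RefSeq windows (GRCm38.p6, 250 bases before to 50 after the start) were read for Fos and for the 14 early genes that were at least 2-fold higher in Fos-high cells in both sets of BMCP numbers described below. All 15 had a window. The cyclic AMP response element TGACGTCA, searched on both strands, stood in windows of 3 of the 15 genes, against 1.79% of all 32851 windows. Its first 5 letters, TGACG, which the full element contains, stood in windows of 9 of the 15 against 20.8% of all windows. These counts are genes with a match in any of their windows, whereas the percentages are shares of single windows. Sgk1 counted among the 9 through 1 of its 6 windows, and Pim1 also had more than 1 window. The AP-1 letters TGANTCA stood in none of the 15 and in 7.81% of all windows, and the core of the serum response element, the CArG box, stood in 1, that of Zfp36, against 1.63%. The windows with the full element are shown with that of Fos, which has TGACG at 2 places. Capitals mark TGACGTCA and TGACG on either strand. They lie at chr12:85473640-85473939 on the plus strand (Fos), and on the minus strand at chr17:26508423-26508722 (Dusp1), chr1:134079106-134079405 (Btg2) and chr7:45526219-45526518 (Ppp1r15a).
Fos: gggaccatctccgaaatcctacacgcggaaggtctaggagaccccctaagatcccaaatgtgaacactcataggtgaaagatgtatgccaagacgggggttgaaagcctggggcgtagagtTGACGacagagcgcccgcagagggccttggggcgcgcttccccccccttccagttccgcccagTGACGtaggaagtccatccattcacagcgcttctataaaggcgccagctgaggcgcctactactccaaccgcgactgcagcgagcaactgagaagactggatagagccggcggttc
Dusp1: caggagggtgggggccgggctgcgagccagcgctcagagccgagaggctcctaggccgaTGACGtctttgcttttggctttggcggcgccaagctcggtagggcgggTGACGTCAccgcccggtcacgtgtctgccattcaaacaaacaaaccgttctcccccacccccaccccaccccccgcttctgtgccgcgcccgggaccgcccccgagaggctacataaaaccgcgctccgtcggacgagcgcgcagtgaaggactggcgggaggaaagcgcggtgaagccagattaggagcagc
Btg2: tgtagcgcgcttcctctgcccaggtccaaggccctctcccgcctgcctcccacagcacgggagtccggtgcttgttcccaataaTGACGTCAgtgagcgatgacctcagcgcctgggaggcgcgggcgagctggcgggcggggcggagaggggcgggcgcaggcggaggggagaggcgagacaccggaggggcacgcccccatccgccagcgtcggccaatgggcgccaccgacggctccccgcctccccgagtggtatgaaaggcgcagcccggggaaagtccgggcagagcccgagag
Ppp1r15a: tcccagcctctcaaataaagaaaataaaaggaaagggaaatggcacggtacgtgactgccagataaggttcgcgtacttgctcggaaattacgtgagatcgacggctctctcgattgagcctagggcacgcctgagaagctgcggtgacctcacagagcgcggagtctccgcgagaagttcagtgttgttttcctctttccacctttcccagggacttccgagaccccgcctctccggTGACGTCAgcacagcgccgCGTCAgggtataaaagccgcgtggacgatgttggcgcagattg
A match describes letters only and does not show that a factor binds there. Sites beyond these windows were not searched, so a missing match does not show that a gene lacks the element. Egr1 was not among the 15 genes.

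Fos ran from 57.5 to 10292 CPM in Fos-high cells, with a median of 1708, and from 0 to 9.90 CPM in Fos-low cells, with a median of 3.15. The cells nearest the limits had 9.90 and 10.2 CPM around the lower one and 45.97 and 57.5 CPM around the upper one. The table lists BMCP by number, and numbers 1 to 47 and 48 to 94 form blocks that the labels do not name but that differ technically, with medians of 35.1% and 24.2% unaligned reads. The first block held 14 Fos-high and 23 Fos-low cells (31.8% of its 44 kept cells Fos-high, exact 95% interval 18.6 to 47.6%). The second held 25 and 13 (55.6% of 45, interval 40 to 70.4%). Block and Fos side are thus partly tied, and for the genes that matter most the ratio within each block stands beside that over all members.

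**Figure D1:**
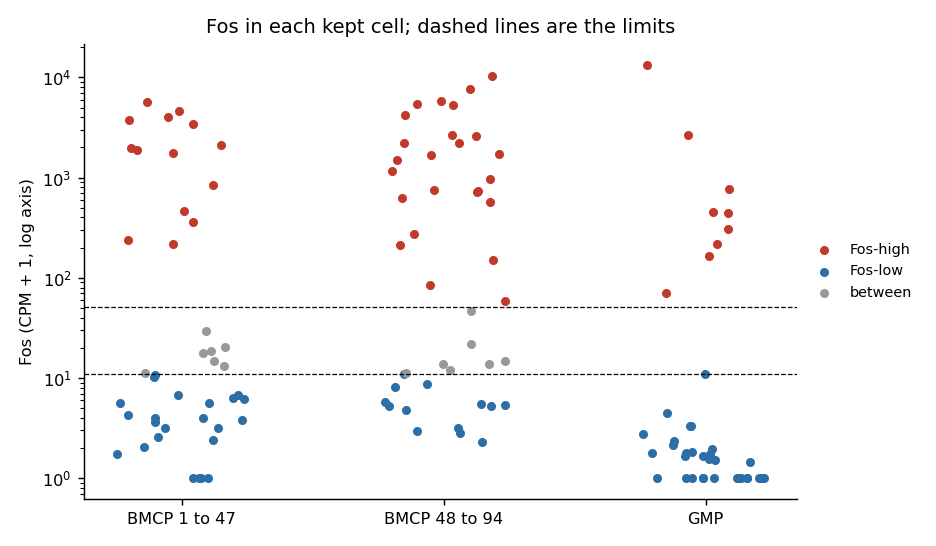
Fos level of each kept cell (CPM + 1, log axis) in BMCP numbers 1 to 47, BMCP numbers 48 to 94 and GMP; each point is a cell, coloured by side, and dashed lines mark the limits of 10 and 50 CPM. Of 45 kept cells in the second BMCP block 25 are Fos-high, against 14 of 44 in the first.

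The sides did not differ much in library quality. Median nuclear-encoded counts were 956651 in Fos-high and 869222 in Fos-low cells, with ranges of 121637 to 2416630 and 207162 to 1886923. Median genes with a read were 5496 and 5329.5, mitochondrial shares 4.48% and 4.65%, spike-in shares 11.2% and 11.3%, and unaligned shares 28.4% and 30.9%. Genes of the sort gate were present on both sides. Kit had a median of 898 CPM in Fos-high and 1146 in Fos-low cells, Itgb7, which encodes integrin beta7, 1554 and 1122, and Gata2, a transcription factor of the basophil and mast cell lineages, 1935 and 1916. For shares of cells, every cell was thinned to 200000 reads, which left 37 Fos-high and 36 Fos-low cells, and a gene was scored at 10 or more of those reads. A count of 0 allows a share of up to 9.49% of the 37 and 9.74% of the 36 cells.

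Per gene, reads were summed over the cells of a side, and the value is the log2 of summed CPM plus 1 in Fos-high over the same in Fos-low cells. Across the 8368 genes with enough reads (at least 5 CPM over both sides together and 2 thinned reads in at least 10% of the cells), Fos aside, 12.6% were at least 2-fold higher in Fos-high cells and 11.1% lower by that measure. Within a block more genes passed, 1589 upward and 1896 downward in the first and 1798 and 1412 in the second. Only 4.86% were higher and 4.54% lower in both blocks, 9.99% passed 2-fold in opposite directions, and 50.1% had the same sign. A 2-fold difference of a single gene between the sides is therefore common in these cells, and each count below is to be read against those shares.

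Early response genes were more often higher in Fos-high cells than genes at large. Of 69 genes in the 4 early response lists, 44 had enough reads, and 19 of these were at least 2-fold higher in Fos-high cells and 3 at least 2-fold lower. The median log2 ratio of the 44 was 0.95, with 1.19 in the first block and 0.80 in the second, beside 0.01 over all genes. These lists were chosen with earlier results of these cells known, so their direction is not independent evidence. In both blocks 14 passed 2-fold upward and 1 downward, and 30 of 44 had the same sign in both. When each gene lost its highest cell in each block, 9 of the 14 stayed past 2-fold in both. So did 105 of the 407 genes of all kinds. Above 0 in both blocks stayed 13 of the 14, and 294 of the 407. The downward one, Dusp5, went to 2.34 in the second block. The summed level of all 69 ran from 3268 to 32937.5 CPM in Fos-high cells, with a median of 9645, and from 1240.5 to 11898 CPM in Fos-low cells, with a median of 4991. The ranges overlapped widely. The other 25 genes had too few reads, 18 of them under 1 CPM over both sides, among them Nr4a1, Klf2, Klf4, Egr3 and Atf3, which are often named as early response genes in other tissues.

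Of 6 AP-1 genes with enough reads, among 11 listed, 3 were at least 2-fold higher in Fos-high cells and none lower, with list medians of 1.84 and 1.599 in the blocks. Jun (chr4:95049034-95052222), the most abundant of them, encodes the main dimer partner of FOS. It ran from 0.524 to 6087 CPM in Fos-high cells with a median of 1871, and from 0 to 3683 CPM in Fos-low cells with a median of 142. The ranges overlapped, but 35 of 39 Fos-high cells lay above the Fos-low median and 4 of 36 Fos-low cells above the Fos-high one. Summed Jun was 1830.2 CPM (95% counting interval 1817 to 1843) against 574 CPM (566 to 582), a log2 ratio of 1.67, with 2.12 and 1.31 in the blocks. At 10 thinned reads Jun was scored in 33 of 37 Fos-high and 22 of 36 Fos-low cells.

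Junb (chr8:84974484-84978718), a JUN relative that often restrains AP-1 activity, had a median of 306 CPM in Fos-high cells (0 to 3006) and 60.3 CPM in Fos-low cells (0 to 913). Of the Fos-high cells 11 exceeded every Fos-low cell. Its log2 ratio was 2.04, and 2.09 and 1.89 in the blocks. Fosb (chr7:19302696-19310051), the closest relative of Fos, was nearly an on or off gene. It had a median of 53.6 CPM in Fos-high cells (0 to 636) and of 0 CPM in Fos-low cells (0 to 175), and it reached 10 thinned reads in 18 of 37 against 4 of 36 cells. Its log2 ratio was 3.43, with 2.51 and 5.24 in the blocks. The other 3 AP-1 genes with enough reads did not reach 2-fold, at log2 ratios of 0.61 for Fosl2, 0.54 for Batf and 0.40 for Jund. Batf, a partner of JUN in lymphocytes, had opposite signs in the blocks (-2.60 and 1.89).

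**Figure D2:**
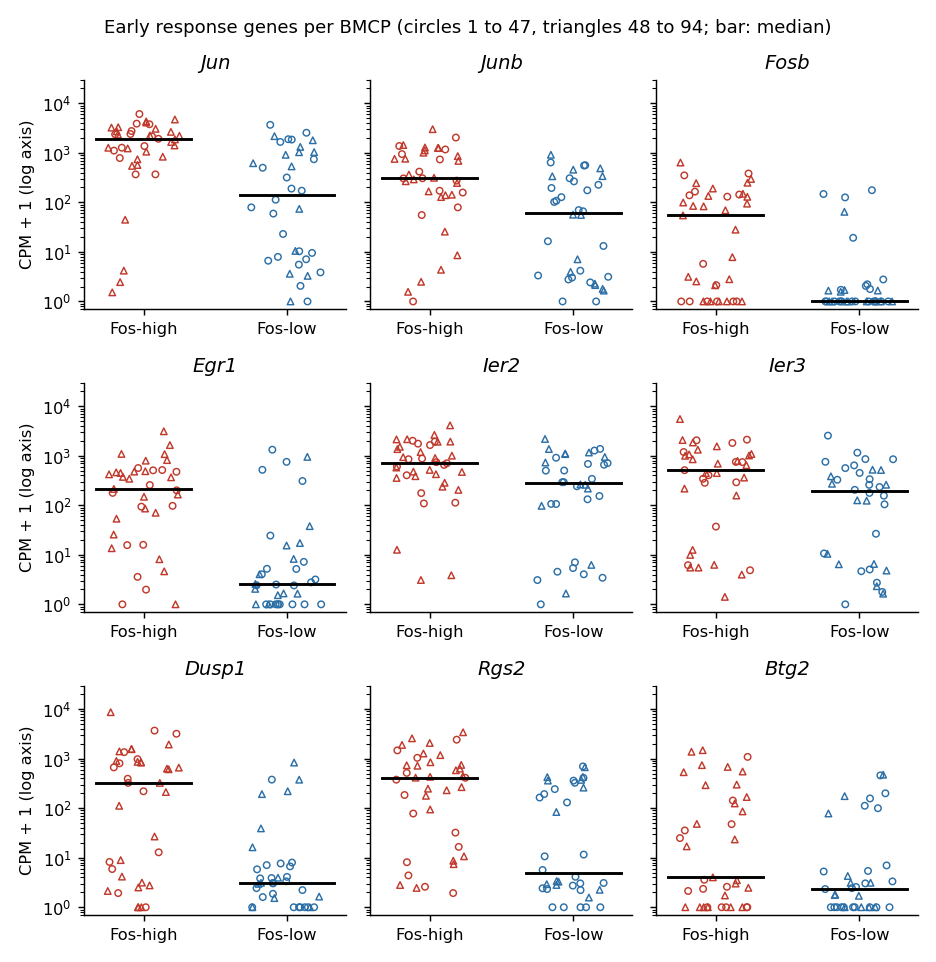
CPM + 1 (log axis) of 9 early response genes in each of the 39 Fos-high and 36 Fos-low BMCP; circles are BMCP numbers 1 to 47, triangles 48 to 94, and bars are medians. The ranges overlap in every panel, and most Fos-high cells lie above the Fos-low median for Jun (35 of 39), Egr1 (36 of 39) and Rgs2 (34 of 39).

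Among the other immediate early transcription factors, 4 of 8 with enough reads were at least 2-fold higher and 1 was lower, with list medians of 0.77 and 0.30 in the blocks. Egr1, a zinc finger factor induced through the serum response element, ran from 0 to 3118 CPM in Fos-high cells with a median of 213, and from 0 to 1326 CPM in Fos-low cells with a median of 1.55. The ranges overlapped through a few Fos-low cells, and 5 of 36 lay above the Fos-high median. At 10 thinned reads Egr1 was scored in 28 of 37 against 5 of 36 cells, in the first block in 8 of 13 against 4 of 23 and in the second in 20 of 24 against 1 of 13. Its summed log2 ratio was 2.21 over both blocks, 0.36 in the first block and 3.39 in the second. In the first block the share of cells with Egr1 thus differed more than the summed level.

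Ier2, a short-lived nuclear protein, was present in most cells, with a median of 706 CPM in Fos-high (2.10 to 4113) and 278 CPM in Fos-low cells (0 to 2183). The ranges overlapped, with 11 of 36 Fos-low cells above the Fos-high median, and the log2 ratio was 1.20 (1.37 and 0.92 in the blocks). Klf6, a Krüppel-like factor, had a log2 ratio of 1.04 (0.13 and 1.01 in the blocks), or 0.85 without its highest Fos-high cell. Ier5, a relative of Ier2, had 1.65 with 1.28 and 1.90 in the blocks, but without BMCP replicate 51 it was 0.99. Hes1, a repressor downstream of Notch, was the lower one at -1.19 (-0.60 and -1.51). Myc stood at 0.48 and Klf10 at 0.27, each with opposite signs in the blocks. Egr2 and Nr4a2 lacked enough reads, and 1 cell held nearly all of them. Of the 1281 Nr4a2 reads in Fos-low cells 99.6% came from BMCP replicate 61, and of the 358 Egr2 reads in Fos-high cells 98.9% came from replicate 87.

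Of 14 genes that damp signalling 4 were at least 2-fold higher and 2 lower. The list median was 1.36 in the first block and 0.01 in the second. Dusp1 (chr17:26505590-26562128) encodes a nuclear phosphatase that switches off MAP kinases. It ran from 0 to 8678 CPM in Fos-high cells with a median of 323, and from 0 to 834 CPM in Fos-low cells with a median of 2.10. Of 39 Fos-high cells 13 exceeded every Fos-low cell, while 4 had no Dusp1 read. Summed Dusp1 was 774 CPM (766 to 783) against 72.2 CPM (69.4 to 75.1), a log2 ratio of 3.40, with 4.59 and 2.74 in the blocks. At 10 thinned reads it was scored in 23 of 37 against 5 of 36 cells.

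Rgs2 (chr1:143999338-144004161), which shortens signalling through G proteins, had a median of 411 CPM in Fos-high cells (0.934 to 3412) and 3.89 CPM in Fos-low cells (0 to 697). Of the Fos-high cells 13 exceeded every Fos-low cell. Its log2 ratio was 2.26, and 2.23 and 2.09 in the blocks. Rgs1, a relative of Rgs2, had 1.03, although its median was 165 CPM in Fos-high and 214 CPM in Fos-low cells, and 0.76 without its highest Fos-high cell. Dusp2, another MAP kinase phosphatase, had 2.64, with 303 against 47.8 CPM summed, and 1.84 without BMCP replicate 50.

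The 2 damping genes at least 2-fold lower in Fos-high cells were Dusp5, a MAP kinase phosphatase, at -2.55 (-3.12 and -1.65 in the blocks), and Socs2, an inhibitor of cytokine receptors, at -2.05 (-2.04 and -0.38). Both were scored at 10 reads in few cells, Dusp5 in 2 of 37 against 5 of 36 and Socs2 in 2 against 8. When each lost its highest Fos-low cell in each block, Dusp5 was at -2.55 and 2.34 and Socs2 at -1.57 and 0.57. Feedback genes of the NF-kappaB pathway stayed within 2-fold over both blocks together. Nfkbia was at 0.33 (1.59 and -0.44 in the blocks) and Tnfaip3 at 0.48 (-2.25 and 0.42). Both thus had opposite signs in the blocks and passed 2-fold in the first. Dusp6, a phosphatase of growth factor signalling, was at 0.69, with 2.35 in the first block and -0.15 in the second.

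The list of RNA decay, growth arrest and survival genes had 8 of 16 genes at least 2-fold higher, 7 of them in both blocks, and none lower, with list medians of 1.15 and 1.49 in the blocks. Ppp1r15a, which brings a phosphatase to the translation factor eIF2 alpha, had a median of 7.203 CPM in Fos-high (0 to 3661) and 1.57 CPM in Fos-low cells (0 to 2874). It reached 10 reads in 16 of 37 against 4 of 36 cells. Its log2 ratio was 2.27 (5.27 and 1.39 in the blocks). BMCP replicate 66 alone gave 84.6% of its Fos-low reads, and without that cell the Fos-low sum was 14.7 instead of 92.5 CPM. In the second block BMCP replicate 57 gave 45.1% of the Fos-high reads, and without it the log2 ratio there was 0.63.

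Btg2, which slows the cell cycle and promotes RNA decay, had 240.4 against 50.1 CPM summed, a log2 ratio of 2.24 (1.56 and 2.22). Its medians were close (3.01 and 1.38 CPM), and a minority of Fos-high cells held its reads, 14 of 37 at 10 reads against 8 of 36. In the first block that share ran the other way, 2 of 13 against 5 of 23 cells. BMCP replicate 12 gave 83.1% of the Fos-high Btg2 reads there, and without it the first-block log2 ratio was -0.81. Ier3, linked to cell survival, had a median of 511 CPM in Fos-high (0.414 to 5519) and 191 CPM in Fos-low cells (0 to 2551), and a log2 ratio of 1.61 (1.20 and 2.19). Zfp36, whose protein tristetraprolin destroys AU-rich messages, had 1.55 (1.65 and 2.15), scored in 9 of 37 against 5 of 36 cells.

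Rarer members of the list had larger ratios from fewer cells. Sgk1, a kinase induced by serum and glucocorticoids, summed to 81.3 against 2.54 CPM (log2 4.54) and reached 10 reads in 6 of 37 against 0 of 36 cells. Rhob, a small GTPase, summed to 49.9 against 2.72 CPM (log2 3.77), in 7 of 37 against 1 of 36 cells. Pim1, a survival kinase, stood at 1.81 (2.34 and 1.63). Mcl1, which opposes apoptosis, had 1.19 over both blocks but -0.18 in the first block and 2.82 in the second. Zfp36l2 and Btg1 lay just under 2-fold at 0.96 and 0.97, Cd69, a lymphocyte activation marker, at 0.48, and Zfp36l1 at -0.56.

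**Figure D3:**
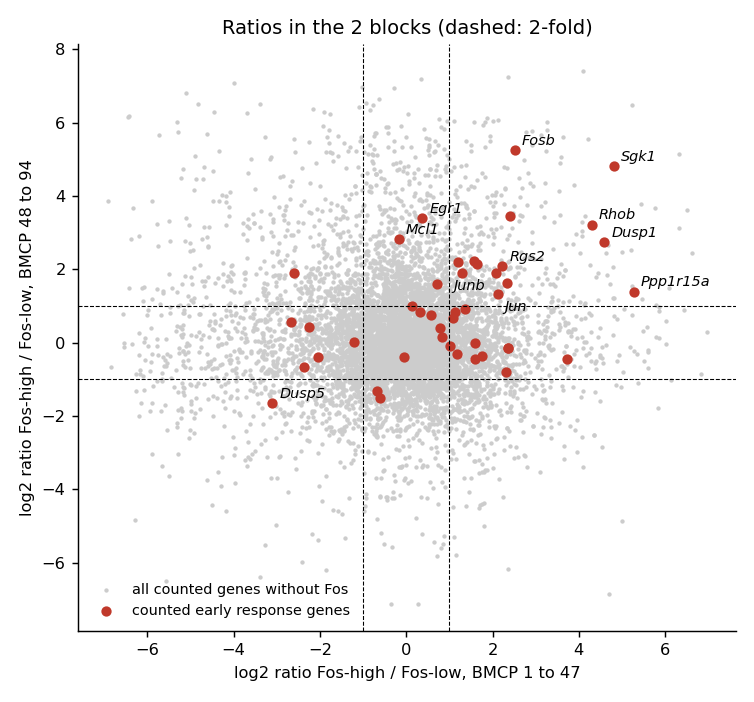
Log2 ratio of Fos-high over Fos-low in BMCP numbers 1 to 47 (x) and 48 to 94 (y); grey points are the 8368 genes with enough reads without Fos, red points the 44 early response genes, and dashed lines mark 2-fold. Of the red points 14 lie past 2-fold upward in both blocks and 1, Dusp5, downward in both. Without its highest Fos-low cell in the second block, Dusp5 was at 2.34 there.

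Several early genes were often scored in the same Fos-high cell. Whether they were joined more often than the share of each gene alone would give was not tested. Jun and Egr1 both reached 10 thinned reads in 25 of 37 Fos-high cells (67.6%, exact 95% interval 50.2 to 81.99%) and in 3 of 36 Fos-low cells (8.33%, 1.75 to 22.5%). Jun, Egr1 and Dusp1 were joined in 15 of 37 and 0 of 36 cells. None of Jun, Junb, Fosb and Egr1 reached 10 reads in 0 of 37 Fos-high and 9 of 36 Fos-low cells. Every thinned Fos-high cell thus had at least 1 of these 4 genes.

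Counted over the 44 early genes, a Fos-high cell had a median of 16 genes at 10 reads (8 to 23) and a Fos-low cell 11 (6 to 19). In the first block the medians were 16 and 10, and in the second 16 and 13. Over all genes the same cells reached 10 reads in medians of 2419 and 2324.5 genes, a much smaller gap. The 13 thinned cells between the limits, in no side, had a median of 10 early genes (3 to 12), and 1 of them had Jun and Egr1 together. Over all 14 cells between the limits the medians were 116 CPM for Jun, 2.35 CPM for Egr1 and 4.77 CPM for Dusp1, against 142, 1.55 and 2.10 CPM in Fos-low cells.

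Across all 89 kept BMCP, the genes whose level followed Fos most closely were mostly early response genes. Of the 10 highest Spearman correlations with Fos CPM, 6 belonged to Egr1 (rho 0.51), Dusp1 (0.51), Jun (0.48), Rgs2 (0.47), Fosb (0.45) and Junb (0.43). The other 4 were Snora31 (0.42), a small nucleolar RNA, Ssh2 (0.42), a phosphatase acting on cofilin, H3f3b (0.42), which encodes a replacement histone, and Hist1h2ac (0.41), of a histone family with near-identical copies whose counts are uncertain. Ssh2 had a median of 263 CPM in Fos-high and 7.66 CPM in Fos-low cells and reached 10 reads in 30 of 37 against 13 of 36. Within the 39 Fos-high cells alone, rho with Fos was 0.48 for Fosb, 0.45 for Jun, 0.43 for Junb and 0.26 for Egr1. Every rho pools both blocks, whose kept cells had median Fos of 9.53 CPM in the first and 149 CPM in the second. A gene that differs between the blocks can gain or lose rho that way, and rho within each block was not computed. The points are cells of 3 mice that the labels do not tell apart, and each value is a share of its cell's total, so these values describe these cells and carry no test.

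At the other end, among genes chosen after their values were seen, the lowest rho belonged to Kif22 (-0.39), a mitotic motor protein, followed by Lrwd1 (-0.38), a subunit linked to the origin recognition complex, and Cd82 (-0.36), a tetraspanin. Cd82 was the most abundant of these, with a median of 24.6 CPM in Fos-high (0 to 955) and 408 CPM in Fos-low cells (0 to 1753) and log2 ratios of -1.41 and -1.30 in the blocks. Rab27b, a GTPase of mast cell granule release, had a rho of -0.34 and summed to 44.4 against 213 CPM (log2 -2.24, with -1.20 and -2.92).

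Transcripts of the kinases and factors upstream of Fos showed no common shift. Of 21 genes of the RAS, MAPK and serum response pathway, all with enough reads, 3 were at least 2-fold higher and 2 lower, with a median log2 ratio of -0.15. Map2k1, the kinase MEK1 of the MAPK cascade, was higher at 2.05 (2.59 and 1.89 in the blocks), scored in 9 of 37 against 2 of 36 cells. Elk3, a serum response cofactor, had 1.02, and Elk1, another, 1.25, or 0.33 without BMCP replicate 45. Hras summed to 1.48 against 50.9 CPM (log2 -4.38), with 0 of 37 against 6 of 36 cells at 10 reads. Mapk8, the kinase JNK1, had -1.87, or -0.68 without replicate 3. The more abundant Nras, Creb1 and Srf were within 2-fold over both blocks together, at -0.15, -0.14 and -0.49. Srf passed 2-fold in the first block, at -2.36, with -0.66 in the second.

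The receptors and adaptors through which mast cells receive signals were not higher as a list. Of 17 genes of Fc receptor and KIT signalling, 1 was at least 2-fold higher and 3 lower, with a median of -0.41 (-0.28 and -0.17 in the blocks). Plcg2, a phospholipase, was the higher one at 2.47, from 6 of 37 against 2 of 36 cells at 10 reads. The lower ones were Sos1, an activator of RAS, at -1.66 (-1.13 and -2.08), Prkcb, a protein kinase C, at -1.10, and Fyn, a SRC family kinase, at -1.30, or -0.42 without replicate 47. Kit itself was at -0.43, and Lyn, the kinase of the IgE receptor, at -0.49 with opposite signs in the blocks. Among 9 cytokine genes with enough reads 2 were at least 2-fold higher, Ccl3 (1.61, or 0.57 without replicate 15) and Osm (1.16), and 1 was lower, Csf1 (-2.09, or 0.13 without replicate 29). Il6, present in 25 thinned cells of each side at 10 reads, was at 0.49, and Il4 at -0.48.

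**Figure D4:**
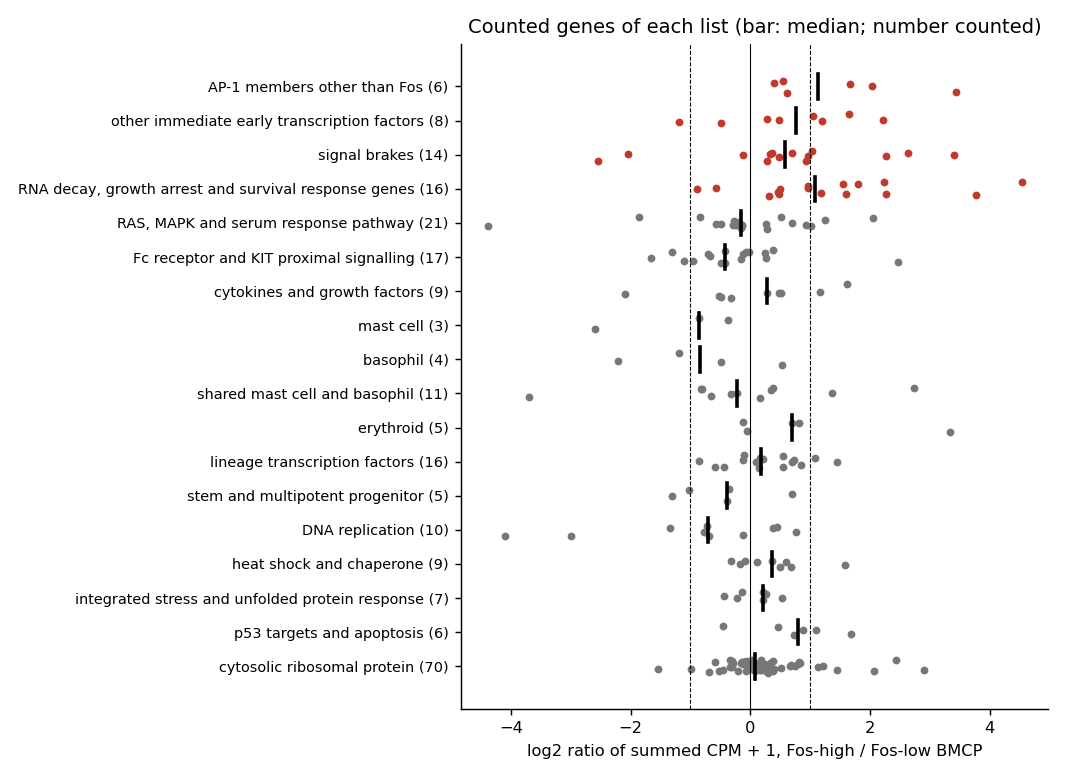
Log2 ratio of summed CPM + 1 in Fos-high over Fos-low BMCP for each gene with enough reads in 18 gene lists; each point is a gene, bars are medians, dashed lines mark 2-fold, and red marks the 4 early response lists. The early response medians over both blocks lie between 0.59 and 1.14, with that of the signal brakes at 0.01 in the second block alone, against -0.15 for the RAS and MAPK list and 0.07 for ribosomal protein genes.

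Genes of mast cell and basophil identity were present on both sides. Of 30 genes in the mast cell, basophil and shared lists 18 had enough reads, of which 2 were at least 2-fold higher and 4 lower in Fos-high cells, with a median log2 ratio of -0.43. That median was -0.51 in the first block and 0.30 in the second, where it was -0.04 without BMCP replicate 52. The abundant genes stayed within 2-fold in the sums. Gzmb, which encodes granzyme B, had medians of 4037 CPM in Fos-high and 7398.5 CPM in Fos-low cells (log2 -0.37). The mast cell carboxypeptidase Cpa3 had 1834 and 3747 CPM (-0.82), and the Fc receptor gamma chain Fcer1g 718 and 1415 CPM (-0.66). Slc18a2, a transporter that fills granules with amines, was at 0.35, Ms4a2, the IgE receptor beta chain, at 0.38, and Srgn, the granule proteoglycan core, at -0.22.

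Hdc, the enzyme that makes histamine, was one of the higher pair. It had a median of 38.7 CPM in Fos-high (0 to 1643) and 3.33 CPM in Fos-low cells (0 to 1268), with 28 of 39 Fos-high cells above the Fos-low median. The ranges overlapped, and the log2 ratio was 1.36, with 1.36 and 1.44 in the blocks. The share at 10 reads differed less, 17 of 37 against 15 of 36 cells. In the first block it was 7 of 13 against 8 of 23 cells. The second block ran the other way, with 10 of 24 against 7 of 13. Hgf, a growth factor, rested on few cells, 3 of 37 at 10 reads and none of 36 (log2 2.74, or 1.73 without BMCP replicate 12).

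The 4 lineage genes at least 2-fold lower in Fos-high cells were Cma1, Mcpt8, Fcer1a and Cyp11a1. Cma1, the mast cell chymase, had a median of 7.13 CPM in Fos-high (0 to 13495) and 26.2 CPM in Fos-low cells (0 to 34299.7), and reached 10 reads in 5 of 37 against 16 of 36. Mcpt8, the basophil protease, had 2.38 CPM (0 to 6097) and 14.3 CPM (0 to 13003), and reached 10 reads in 5 against 14 cells. Fcer1a, the IgE receptor alpha chain, was at 10 reads in 4 against 10 cells. The summed log2 ratios were -2.59 for Cma1, -2.21 for Mcpt8, -3.70 for Fcer1a and -1.19 for Cyp11a1, a steroid enzyme found in basophils.

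Those 4 ratios turned positive in the second block, at 3.22, 1.01, 3.27 and 0.54. There, 1 Fos-high cell, BMCP replicate 52, had 13495 CPM of Cma1 and 3623 CPM of Mcpt8. Without it the second-block ratios were -2.65 for Cma1 and -4.72 for Mcpt8, but 3.33 for Fcer1a and 0.39 for Cyp11a1. Fcer1a there rested on 2 Fos-high cells at 10 reads, with none of 13 Fos-low cells, which allows a share of up to 24.7%.

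In a split chosen after the values were seen, at least 50 CPM of Cma1, Mcpt8 or Fcer1a, genes picked from the lists for their lower sums, was found in 12 of 39 Fos-high cells (30.8%, 17.02 to 47.6%) and in 20 of 36 Fos-low cells (55.6%, 38.1 to 72.1%). The shares were 8 of 14 against 15 of 23 in the first block and 4 of 25 against 5 of 13 in the second. All 3 genes together were at that level in 0 of 39 Fos-high cells, which allows a share of up to 9.03%. They were so in 7 of 36 Fos-low cells, all 7 in the first block. The number of early genes did not move with these 3 genes within a side. Fos-high cells had medians of 16 early genes with and 16 without any of them, and Fos-low cells 11 and 11.5. With cells at 50 CPM or more of Mcpt8 left out, the early response median log2 ratio was 1.06 and that of the lineage lists -0.02. Mcpt8 belongs to the lineage lists, and the cells left out were 5 of 39 Fos-high and 14 of 36 Fos-low cells. The lineage value is therefore no separate check.

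**Figure D5:**
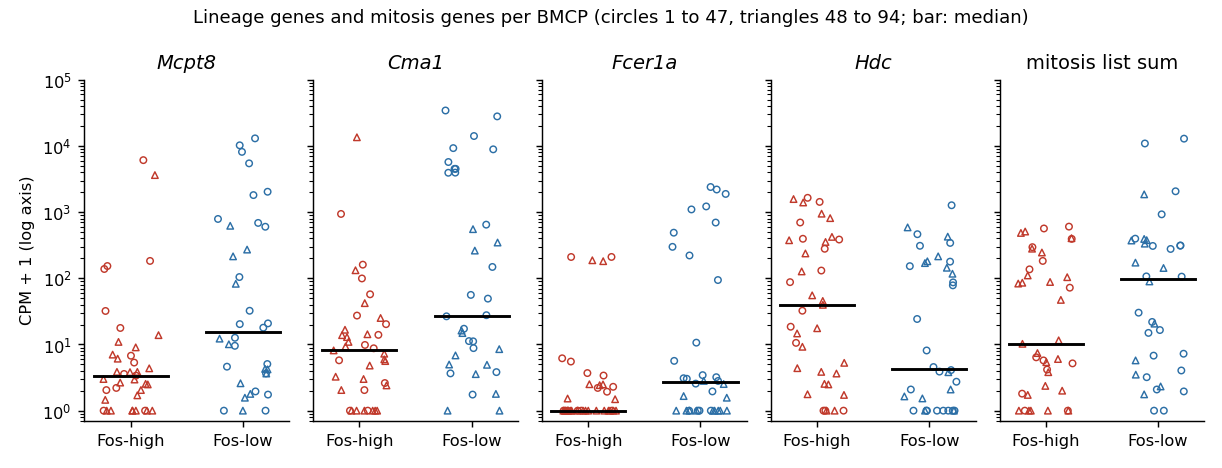
CPM + 1 (log axis) of Mcpt8, Cma1, Fcer1a and Hdc and the summed level of 14 mitosis genes in each Fos-high and Fos-low BMCP; circles are BMCP numbers 1 to 47, triangles 48 to 94, and bars are medians. The 4 cells with most mitosis reads are Fos-low, and 1 second-block Fos-high cell, BMCP replicate 52, has 13495 CPM of Cma1, the highest of the Fos-high cells.

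Few markers of other cell types had enough reads, and their part in the differences was not tested. Of 13 erythroid genes 5 had enough reads and 1 was at least 2-fold higher, Klf1, the erythroid master regulator, at 3.34 (0.63 and 3.68 in the blocks). Klf1 reached 10 reads in 9 of 37 against 3 of 36 cells, and Car1 and Gata1 were at 0.81 and -0.12. The summed erythroid list ran from 1.35 to 3609 CPM in Fos-high and from 0 to 2336 CPM in Fos-low cells, and the 4 globin genes were under 1 CPM. Of 9 eosinophil genes only Siglecf had enough reads, with 93.8 against 4.53 CPM summed (log2 4.10) and 8 of 37 against 1 of 36 cells at 10 reads. Without BMCP replicate 75 its ratio was 3.50. The eosinophil list summed to 0 to 1212 CPM in Fos-high and 0 to 453 CPM in Fos-low cells, with the granule genes Epx, Prg2, Prg3 and the Ear genes under 1 CPM.

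Of 9 early granulocyte genes 2 had enough reads. Mpo, the myeloperoxidase of granules, summed to 26.02 against 3.88 CPM, with medians of 4.52 and 3.96 CPM, and Ctsg, cathepsin G, to 73.5 against 16.04 CPM. BMCP replicate 12 gave 37.6% and 80.7% of these Fos-high reads, and without it the log2 ratios were 1.86 and -0.13. The granulocyte list summed to 1.05 to 2922 CPM in Fos-high and 2.33 to 333 CPM in Fos-low cells, with Elane under 1 CPM. The same cell gave 99.8% of the 10268 Fos-high reads of Prss34, a basophil protease. No monocyte, lymphoid or megakaryocyte gene with enough reads was past 2-fold, among 2, 2 and 3 genes. Of 5 stem cell genes Hoxa9 (-1.02) and Erg (-1.31), both transcription factors, were at least 2-fold lower. Of 16 lineage transcription factors 2 were at least 2-fold higher, Stat5a (1.45, with 0.57 and 1.59) and Cebpa (1.08). Gata2 was at 0.15 and Runx1, a general blood regulator, at 0.84 (0.63 and 1.19).

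The genes of dividing cells that passed 2-fold were all lower in Fos-high cells. Of 14 DNA replication genes 10 had enough reads, none at least 2-fold higher and 3 lower, with a median of -0.71. Mcm3, a subunit of the replicative helicase, reached 10 reads in 5 of 37 against 12 of 36 cells and had a log2 ratio of -3.00 (-3.51 and -2.97 in the blocks). Rrm1, which makes DNA precursors, had -4.09 (-2.41 and -5.98), from 1 against 5 cells. Mcm4 had -1.35, or -0.67 without BMCP replicate 62, while Mcm6 (0.76), Pcna (0.44) and Mcm5 (0.39) had positive ratios under 2-fold.

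Mitosis genes sat in a handful of cells. The summed level of the 14 genes ran from 0 to 602 CPM in Fos-high cells with a median of 9.22, and from 0 to 12873 CPM in Fos-low cells with a median of 96.8. The highest 4 cells, BMCP replicates 44, 29, 11 and 62, were all Fos-low, with 12873, 10889, 2063 and 1852 CPM, and they were the only BMCP with 3 or more of these genes at 10 reads. Top2a and Cenpa, the 2 with enough reads, had log2 ratios of -1.89 and -1.92. Mki67 lacked enough reads and summed to 1.53 against 129 CPM, at 10 reads in 1 of 37 against 4 of 36 cells. When cells with at least 50 CPM of Mki67 were left out, Top2a went to 2.58, and the early response median to 0.86.

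Over both blocks together, other stress programmes had lower medians than the early response lists, apart from the p53 targets. Of 9 heat shock and chaperone genes 1 was at least 2-fold higher and none lower, with a median of 0.36. That one, Hsph1, had 1.59, or 0.74 without BMCP replicate 67, and the constitutive chaperone Hspa8 had 0.67. The classical heat shock genes Hspa1a and Hspa1b lacked enough reads. None of 7 genes of the integrated stress and unfolded protein response was past 2-fold in either direction (median 0.21). Of 6 p53 target genes (median 0.80) 2 were at least 2-fold higher, Ccng1, or cyclin G1, at 1.69 and Trp53inp1 at 1.10, the second with opposite signs in the blocks. The p53 list median was -0.26 in the first block and 1.37 in the second. When each gene lost its highest cell in the higher side, it was 0.09 over both blocks. Of 70 ribosomal protein genes 6 were at least 2-fold higher and 1 lower, with a median of 0.07. Of 7 adhesion and homing genes S1pr1, which guides exit from tissue, was higher at 1.19 (3.23 and 0.33).

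Beyond the lists, 166 genes passed 2-fold upward and 156 downward in the sums, in both blocks and in the mean over cells, with the level, spread and single-cell limits of the naming rule. The 12 largest upward ratios included 3 early response genes, Rhob, Fosb and Dusp1. The largest under that rule was Zfp53, a zinc finger gene, with 92.4 against 4.29 CPM (log2 4.14), at 10 reads in 11 of 37 against 1 of 36 cells. It was followed by Asrgl1, an asparaginase, at 3.79, in 11 against 2 cells. The others, from 3.58 down to 2.96, were Zbtb34, Cluh, Tm6sf1, Brms1l, Shld1, H2-DMb1 and Jmjd4, each at 10 reads in 7 to 11 Fos-high and 1 to 3 Fos-low cells. Dusp1 and Fosb apart, the median of each in Fos-high cells was at most 1.002 CPM, so these ratios came from a minority of cells.

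Under the same rule, the largest downward ratio was that of 2810006K23Rik, an uncharacterised gene, with 0.643 against 114 CPM (log2 -6.13), at 10 reads in 0 of 37 against 9 of 36 cells. Socs6, of the family that inhibits cytokine and KIT signalling, came next at -5.23, also in 0 against 9 cells. Hras was the third. The rest, from -4.20 to -3.27, were 2010315B03Rik, Gfod1, St3gal2, Lrrc41, Fbxo25, Rrp8, Riox1, Polb, a DNA repair polymerase, and ENSMUSG00000089672, which the annotation used here does not name. The direction within the blocks was part of the choice of these genes and is no separate check.

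GMP were cut by the same limits to see whether the early genes also went with Fos there. They gave 9 Fos-high and 32 Fos-low cells (21.95% of 41 kept, 10.6 to 37.6%). Among 9707 genes with enough reads in GMP, 12.2% lay at least 2-fold higher in Fos-high cells and 22.5% as far below. Of 37 early response genes 10 were higher and 8 lower, with a median log2 ratio of 0.07, beside -0.12 over all genes. Jun (1.17), Junb (1.25) and Fosb (1.25) had positive ratios, but Dusp1 (-0.48) and Rgs2 (-0.72) did not. The shares of cells at 10 reads were not lower for these 2 genes. Dusp1 was scored in 3 of 8 thinned Fos-high and 6 of 32 Fos-low GMP, and Rgs2 in 6 of 8 and 22 of 32. Egr1 was at 60.8 against 4.39 CPM, with 74.1% of the Fos-high reads in GMP replicate 3, and Jun and Egr1 were joined in 1 of 8 thinned Fos-high GMP. GMP filled a block of their own, so population and block cannot be told apart, the 9 cells give little precision, and the difference from BMCP was not tested.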

How the data were processed

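Single-cell RNA-seq libraries of 94 BMCP and 47 GMP were made with oligo-dT primed cDNA, per the labels' protocols. The authors deposited whole-number read counts for every gene in each cell. Reads were aligned with GSNAP 2015-09-29 to mm10 and counted with HTSeq 0.5.3p3, per the submitters' processing notes. The annotation used for counting was not given in the sources used here. No strand is marked by the protocol, so reads of overlapping and antisense genes cannot be told apart. Rows that name no gene (unaligned reads, no feature, ambiguous) stayed out of all totals; their medians over the 89 kept BMCP were 30.2% unaligned, 17.7% without a feature and 3.74% ambiguous of all reads. GENCODE vM21 gave symbols to 44994 of 46041 nuclear gene rows.

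Counts were summed per side, scaled to CPM and compared as log2 of CPM plus 1, with exact Poisson limits for sums and Clopper-Pearson limits for shares of cells. Calculations used Python 3.11.15 with numpy 2.4.6, pandas 2.3.3, scipy 1.17.1 and matplotlib 3.10.9. No test was run, because cells are not replicates and the sides were cut on a readout. In simulated counts for 46041 genes of this comparison, 50 genes each changed 8-fold and 2-fold upward gave median log2 ratios of 2.92 and 0.94. Those counts held counting error alone around a mean shared by all cells. They lack the spread between real cells, so they check the calculation and not the precision of the ratios.

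Any list member with at least 1 CPM could be named. Beyond the lists, the 12 largest ratios in each direction were named if a gene had 20 CPM or more in the higher side, 2 thinned reads in at least 25% of its cells, no cell with 50% or more of its counts, and at least 2-fold in both blocks and in the mean over cells. The 10 highest correlations with Fos were named too. The Fos limits, members and 25 gene lists were chosen with earlier results of these data known. Alternatives changed the weighting, depth, scaling, pseudocount, filter, Fos limits, block and cells left out. The mean of the 2 blocks and leaving out BMCP replicates 12 and 52 were added after seeing the data. Some list members are not reported here.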

Additional observations from a re-analysis of the deposited data

How the results depend on the processing

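The median of the 4 early response lists together ran from 0.49, with no filter on low genes, to 1.19 in the first block and stayed above 0 under every alternative run. The separate early response lists were given by block only. The median of the lineage lists ran from -0.51 to 0.30 and was above 0 in BMCP numbers 48 to 94. The counts of genes at least 2-fold higher (1058) and lower (930) moved most. They were 2864 and 2725 with no filter on low genes, 1589 and 1896 in the first block, 1798 and 1412 in the second, and 629 and 510 when each gene lost its highest cell in the higher side. The 14 early response genes higher in both blocks became 9 when each lost its highest cell in each block, an alternative added after seeing the data. Of 87 named genes past 2-fold, 84 kept their direction and 64 stayed past 2-fold without the highest cell in the higher side over both blocks. The corresponding numbers were 85 and 72 in the first block, 79 and 70 in the second, and 87 and 75 for the mean of the cells' CPM.

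Named genes past 2-fold that changed sign, with the log2 ratio then obtained, were Mcl1 (-0.18) and Trp53inp1 (-0.65) in the first block. In the second block they were Elk1 (-0.32), Fyn (0.85), Cma1 (3.22), Mcpt8 (1.01), Cyp11a1 (0.54), Fcer1a (3.27), Ctsg (-1.64) and Prss34 (-0.57). With all cells under 50 CPM of Fos as the low side Elk1 was at -0.23, and with limits of 200 and 5 CPM Mapk8 was at 0.90. Without cells at 50 CPM or more of Mcpt8, Csf1 was at 1.82, Cyp11a1 at 0.33, Prss34 at -0.15 and Cebpa at -0.73. Without cells at 50 CPM or more of Mki67, Csf1 was at 0.10 and Top2a at 2.58. Without its highest cell, Csf1 was at 0.13, Ctsg at -0.13 and Prss34 at -0.16, and leaving out BMCP replicate 12 or 52 gave Ctsg ratios of -0.13 to 2.18 and Prss34 ratios of -0.16 to 7.29. The cause was not tested.

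No paired analysis was possible because no test was run and the numbers only name cells. Each side is 1 sample of cells from mice that the labels do not tell apart, so the spread between animals is unknown. Reads carry no molecular identifiers. Genes in few cells, such as the mitosis genes, Cma1 and Mcpt8, rest on those cells.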
